A study of Mus musculus with 2 samples.

Results

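In the middle of the liver lobule, both hepcidin genes were at their highest level of the axis in both sections, above the portal side and above the central side. Hamp averaged 1043 CPM (counts per 1000000 UMIs) there in the section of the AEG-1-WT mouse (WT below) and 563 in that of the AEG-1-C75S mouse (C75S below), and Hamp2 averaged 846 and 820. Cyclin D1 (Ccnd1) and the Kupffer cell receptor Vsig4 were the other 2 genes that passed the same test, and no gene passed the test for a dip. None of the 4 passed with DESeq2, against the neighbouring bins alone or on an axis from other zone markers, and Ccnd1 alone passed without the spots richest in connective tissue and bile duct genes. Igfbp2 was also highest in the middle bin of both sections, but its difference from the portal side did not pass. Between the genotypes, the middle bin had Igfbp2 and Igfbp1 higher and Hamp lower in C75S, by amounts close to those found elsewhere on the axis.

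Bins were defined spot by spot. Spatial transcriptomics on a Visium slide counts transcripts, as unique molecular identifiers (UMIs), in spots that each cover several cells. For every spot with at most 50000 UMIs, the log2 ratio of Cyp2f2, a periportal cytochrome P450, over Cyp2e1, a pericentral one, was taken with 1 added to each count, and spots were ranked by this ratio within their section. The axis was cut into 5 bins of equal size, and the members of the middle bin were the spots between the 40th and the 60th percentile, 461 of 2309 in WT and 433 of 2163 in C75S, 894 of 4472 in all. The 2 bins on the central side are called central and inner, and the 2 bins on the portal side are called outer and portal.

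Each genotype was represented by 1 section of the liver of 1 naive, untreated female mouse of 8 weeks. The mice came from matings between heterozygotes of a CRISPR/Cas9 knock-in line in which cysteine 75 of AEG-1, the oncogene product also called MTDH, is replaced with serine, and 5 µm sections were cut from the same lobe after formalin fixation and paraffin embedding. The middle bin held 8928858 UMIs in WT (median 18160 per spot) and 7999618 in C75S (median 18231). With 1 animal per genotype, no difference between genotypes could be tested, and genotype cannot be told apart from animal, section or slide area. Intervals on single values and on ratios are 95% intervals for counting error alone.

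Blood enters the lobule at the portal tracts and leaves at the central vein, and hepatocytes along this path differ in what they make. Periportal hepatocytes are known for gluconeogenesis and urea synthesis, and pericentral hepatocytes for xenobiotic and bile acid metabolism. Hepatocytes between them are known for hepcidin, the peptide hormone that removes the iron exporter ferroportin from cell surfaces, and for Igfbp2, a binding protein of insulin-like growth factors. In the liver, hepcidin transcription is driven by BMP signals from sinusoidal endothelium through SMAD proteins and by inflammatory signals through STAT3.

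The bases upstream of the 3 mid-lobular markers are shown because the genes share a position on the axis and not a genotype difference. Each line gives the 250 bases before the annotated start, 5′ to 3′ on the gene's strand, from RefSeq on GRCm38.p6, with searched motifs in capitals.
Hamp: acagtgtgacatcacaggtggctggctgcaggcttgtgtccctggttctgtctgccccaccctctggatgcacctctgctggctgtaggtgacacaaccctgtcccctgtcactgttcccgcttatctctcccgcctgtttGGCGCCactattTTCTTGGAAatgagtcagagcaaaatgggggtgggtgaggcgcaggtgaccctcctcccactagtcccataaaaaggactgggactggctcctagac
Hamp2: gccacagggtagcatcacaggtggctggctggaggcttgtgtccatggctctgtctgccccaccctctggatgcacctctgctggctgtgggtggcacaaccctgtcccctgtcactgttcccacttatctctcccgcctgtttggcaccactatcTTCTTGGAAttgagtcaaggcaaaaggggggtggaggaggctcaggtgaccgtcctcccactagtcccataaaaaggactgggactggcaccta
Igfbp2: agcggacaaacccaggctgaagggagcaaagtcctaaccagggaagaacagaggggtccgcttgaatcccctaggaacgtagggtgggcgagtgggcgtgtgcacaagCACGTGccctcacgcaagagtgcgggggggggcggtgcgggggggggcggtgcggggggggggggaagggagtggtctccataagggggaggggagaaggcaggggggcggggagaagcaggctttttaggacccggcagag

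These windows lie at chr7:30944030-30944279 (minus strand) for Hamp, chr7:30924182-30924431 (minus strand) for Hamp2 and chr1:72824230-72824479 (plus strand) for Igfbp2. Igfbp2 had another annotated start further downstream, whose window (chr1:72825137-72825386) held none of the searched motifs and is not shown. The letters of a BMP response element (GGCGCC, which reads the same on both strands) stood 109 to 104 bases before the start of Hamp and were not found in the windows of Hamp2 and Igfbp2. Of 32851 upstream windows of this length in the table, 9.59% held these letters. A STAT site (TTCNNNGAA, the same on both strands) stood 97 to 89 bases before the start of Hamp and 94 to 86 bases before that of Hamp2, and 7.02% of windows held one. An E-box (CACGTG, the same on both strands) stood 142 to 137 bases before the start of Igfbp2 whose window is shown, and 6.02% of windows held one. The FOXO site TGTTTAC, searched on both strands, was in none of the 3 windows and in 3.17% of all. No 2 of these matches overlapped, and they are matches of letters, not measured binding sites. The first transcripts of Hamp and Hamp2 were 92.4% identical and their windows 89.7%, so that the share of counts given to each of the 2 genes is uncertain wherever a probe could take up both.

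The position of the member spots could be checked with markers the ranking did not use. When spots were ranked by the summed other periportal markers, among them Pck1, Hal, Gls2, Hsd17b13 and Ass1, over Cyp1a2 and Oat, 234 of the 461 WT members (50.8%) and 183 of the 433 C75S members (42.3%) were again in the middle bin. At the central end of that ranking lay 3.25% of WT members and 3.93% of C75S members, and at the portal end 2.17% and 5.77%. The middle bin is therefore a range on an axis and not a separate cell population. The ratio that chose the members ran from -3.12 to -1.76 in WT, where the nearest spots outside were at -3.121 and -1.7549, and from -2.67 to -1.49 in C75S, where they were at -2.6724 and -1.4811. Within 0.1 of an edge lay 34 and 31 members in WT and 56 and 32 in C75S. The sections had 1896 barcodes in common, which name slide positions and not cells, and the ratio at shared barcodes was uncorrelated between sections (Pearson's r = -0.01), with 97 positions belonging to the middle bin in both.

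Cyp2f2 and Cyp2e1, which set the axis, are given only as a description. Cyp2f2 averaged 1184 CPM in the middle bin of WT, between 370 at the central end and 2444 at the portal end, and 1467 in C75S, between 569 and 2773. Cyp2e1 averaged 6758 CPM between 13168 and 2154 in WT, and 6529 between 12014 and 2300.0 in C75S.

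Hamp (chr7:30942368-30944029), which encodes the hormone hepcidin, followed the same arch in both sections. From the central to the portal end its 5 levels were 860, 957, 1043, 928 and 835 CPM in WT, and 452, 504, 563, 526 and 469 CPM in C75S. The middle value rested on 9312 UMIs in WT (interval 1022 to 1064 CPM) and 4506 in C75S (547 to 580 CPM). Every bin of C75S was below every bin of WT, while the middle was the top of the arch in each. Hamp was higher in the middle bin by 0.18 on the log2 scale (standard error 0.03) against the mean of the 2 portal-side bins, and by 0.26 (standard error 0.03) against the central side, with an adjusted p of 0.00889 (edgeR quasi-likelihood test over 10 sums of 2 sections, the larger of the 2 p-values, Benjamini-Hochberg over 10221 genes). In that test 4 genes were called as peaks, 0.0391% of the 10221 genes. The 3 mid-lobular markers were taken from the study, which had chosen them as known zone markers, and 2 of the 3 were called.

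Hamp2 (chr7:30922372-30924181), the second mouse hepcidin gene, had levels of 715, 760, 846, 781 and 678 CPM from the central to the portal end of WT. In C75S its levels were 626, 754, 820, 755 and 665 CPM. The middle was again the highest bin of each section, and for this gene the 2 sections overlapped along the axis. The differences were 0.18 against the portal side and 0.27 against the central side (standard errors 0.03 and 0.03), with an adjusted p of 0.00974 in the edgeR test.

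Single spots overlapped widely between bins. The median WT member spot had 1047 CPM of Hamp from 19 UMIs, with 5% of spots below 583 and 5% above 1483, while the median spot of the portal bin had 819 and of the central bin 864. In C75S the median member had 545 CPM from 10 UMIs, against 463 and 441 at the portal and central ends. The hepcidin signal was spread over the spots: the 10 member spots with the most Hamp held 4.77% of its UMIs in WT and 6.08% in C75S.

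**Figure D1:**
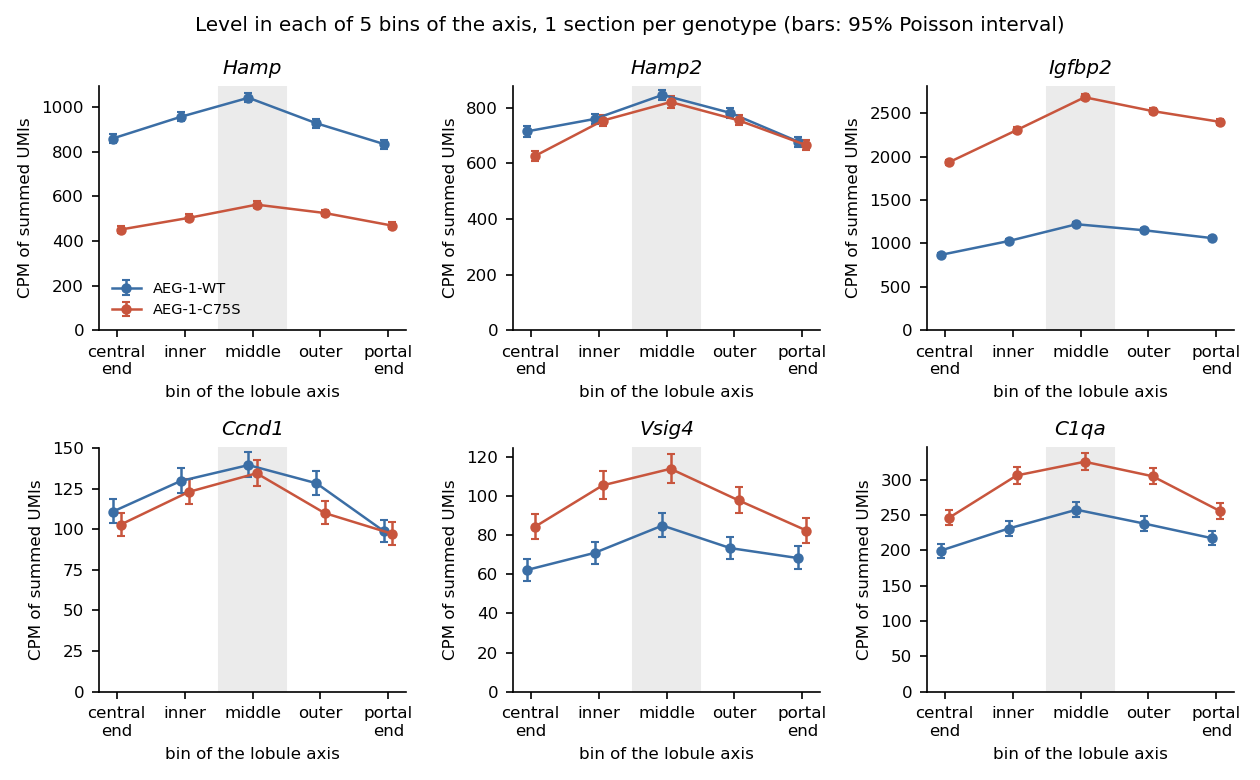
Level of 6 genes in each bin of the axis, as CPM of UMIs summed over the spots of the bin, with 1 section per genotype and bars for the 95% Poisson interval. In both sections the middle bin (shaded) is the highest point of each line, with Hamp at 1043 CPM in WT and 563 in C75S, and Igfbp2 at 1222 and 2686.

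Igfbp2 (chr1:72824480-72852474) had 868, 1028, 1222, 1152 and 1061 CPM from the central to the portal end of WT, and 1935, 2307, 2686, 2527 and 2401 CPM in C75S. Its arch was lopsided, with both portal-side bins above both central-side bins in each section. It was above the central side by 0.40 (standard error 0.03) and above the portal side by 0.10 (standard error 0.03), and the pair gave an adjusted p of 0.945 in the edgeR test, so that no peak was called. Without the TMM scaling the portal-side difference was 0.13 and the adjusted p 0.00215. Without the 10% of spots richest in connective tissue and bile duct genes the portal-side difference was -0.00165 and its sign turned.

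Ccnd1 (chr7:144929931-144939831), which encodes the cyclin that takes cells from G1 towards S phase, had the smallest p of all genes tested. Its levels were 111, 130, 140, 128 and 98.7 CPM from the central to the portal end of WT, and 103, 123, 135, 110 and 97.2 CPM in C75S. Both ends were low and the middle was highest in both sections, with the inner bin as its nearest neighbour. The differences were 0.30 against the portal side and 0.28 against the central side (standard errors 0.05 and 0.04), with an adjusted p of 0.00112 in the edgeR test. The median member spot held 2 Ccnd1 UMIs in each section, and the 10 highest spots held 6.98% and 8.36% of them. Of the 17 genes of the mTOR, IGF binding and cell growth list that were tested, Ccnd1 was called, where the share of all genes was 0.0391%.

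Vsig4 (chrX:96247201-96293438), a complement receptor of Kupffer cells, the resident macrophages of the sinusoids, was the fourth gene called. It had 62.1, 70.9, 84.9, 73.4 and 68.2 CPM from the central to the portal end of WT, and 84.2, 105, 114, 97.8 and 82.3 CPM in C75S. The middle was highest in both sections and every bin of C75S was above the same bin of WT. The differences were 0.27 against the portal side and 0.35 against the central side (standard errors 0.05 and 0.05), with an adjusted p of 0.00974 in the edgeR test.

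The calls rested on small differences. All 4 genes were above both sides in every one of the 10 other settings tried for this test, but none of them was called by DESeq2, when the middle was compared only with the 2 bins next to it, or when the axis came from the other zone markers. With spots thinned to 5000 UMIs, and again without the 10% of spots richest in connective tissue and bile duct genes, Ccnd1 alone among the 4 was still called. Without those spots the smaller of the 2 differences was 0.0834 for Hamp, 0.0992 for Hamp2 and 0.14 for Vsig4, each with an adjusted p of 1 (edgeR). Against only the neighbouring bins it was 0.11 for Hamp, 0.0948 for Hamp2, 0.14 for Ccnd1 and 0.19 for Vsig4, and on the axis from the other zone markers 0.18 for Ccnd1 and 0.0956 for Vsig4. With DESeq2 the portal-side difference of Hamp was 0.18 with an adjusted p of 0.173. The smaller difference was 0.28 for Ccnd1 and 0.27 for Vsig4 there, as large as in the main fit. Depth moved along the axis as well: the median UMIs per spot from the central to the portal end were 16116.5, 17292, 18160, 17128.5 and 15860.5 in WT and 18189, 19035.5, 18231, 21518.5 and 17810 in C75S. Among spots of 10000 to 30000 UMIs only, Hamp, Hamp2 and Ccnd1 were still called and Vsig4 had an adjusted p of 0.0601 (edgeR). With a narrower middle bin Vsig4 again was not called, with an adjusted p of 0.144 (edgeR), while its smaller difference was 0.27, as in the main fit.

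A looser count asked only that the counting intervals of both differences excluded 0 in each section, with no test. It held for 24 genes above both sides, 0.235% of the 10221, and for 2 below, 0.0196%. In one section alone the shares were larger, with 99 genes above (0.969%) and 51 below (0.499%) in WT, and 107 above (1.05%) and 94 below (0.92%) in C75S. The 24 genes, named here after their values were seen, included the 4 called by edgeR and Igfbp2. Cd5l and Clec4f, of the Kupffer cell list, were among them, while Marco and Fabp5 of that list were not. C1qa, C1qb, Fcna, Cybb, Ctss and Siglece, which macrophages are known to express, were also among the 24. Of the 7 genes of the leukocyte list that were tested, 0 were among the 24. Plvap of fenestral diaphragms, the lymphatic growth factor receptor Flt4 and the tight junction gene Cldn5, all known from endothelium, were also among the 24, while no gene of the sinusoidal endothelial list was. No enrichment of genes of either cell type was tested. C1qa, a subunit of complement C1q, had 258 CPM in the middle bin of WT against 217 at the portal and 200 at the central end, and 326 against 255 and 246 in C75S. Its edgeR differences were 0.16 and 0.29 with an adjusted p of 0.117. Hist1h3d, a histone H3 gene, had the largest smaller-side difference of the 24, with 0.39 against the portal and 0.41 against the central side and an adjusted p of 0.665.

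Several abundant transcripts in this group, most of them of secreted hepatocyte proteins, had smaller differences. F2 (prothrombin), C4b (complement C4), Apoa1, Ahsg (fetuin-A) and Tpt1 differed by at most 0.10 from the portal side and at most 0.14 from the central side in the edgeR fit. The abundant Tmsb4x, which encodes the actin-binding peptide thymosin beta 4, was above the central side by 0.31 and above the portal side by 0.05, and its single highest bin was the outer one in both sections. Ahsg was above the portal side in plain CPM and below it, by -0.02, after TMM scaling. The 2 genes below both sides were Ccdc159, at -0.56 and -0.51 against the portal and central sides, and Net1, a RhoA exchange factor, at -0.39 and -0.24, and each had an adjusted p of 1 in edgeR.

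**Figure D2:**
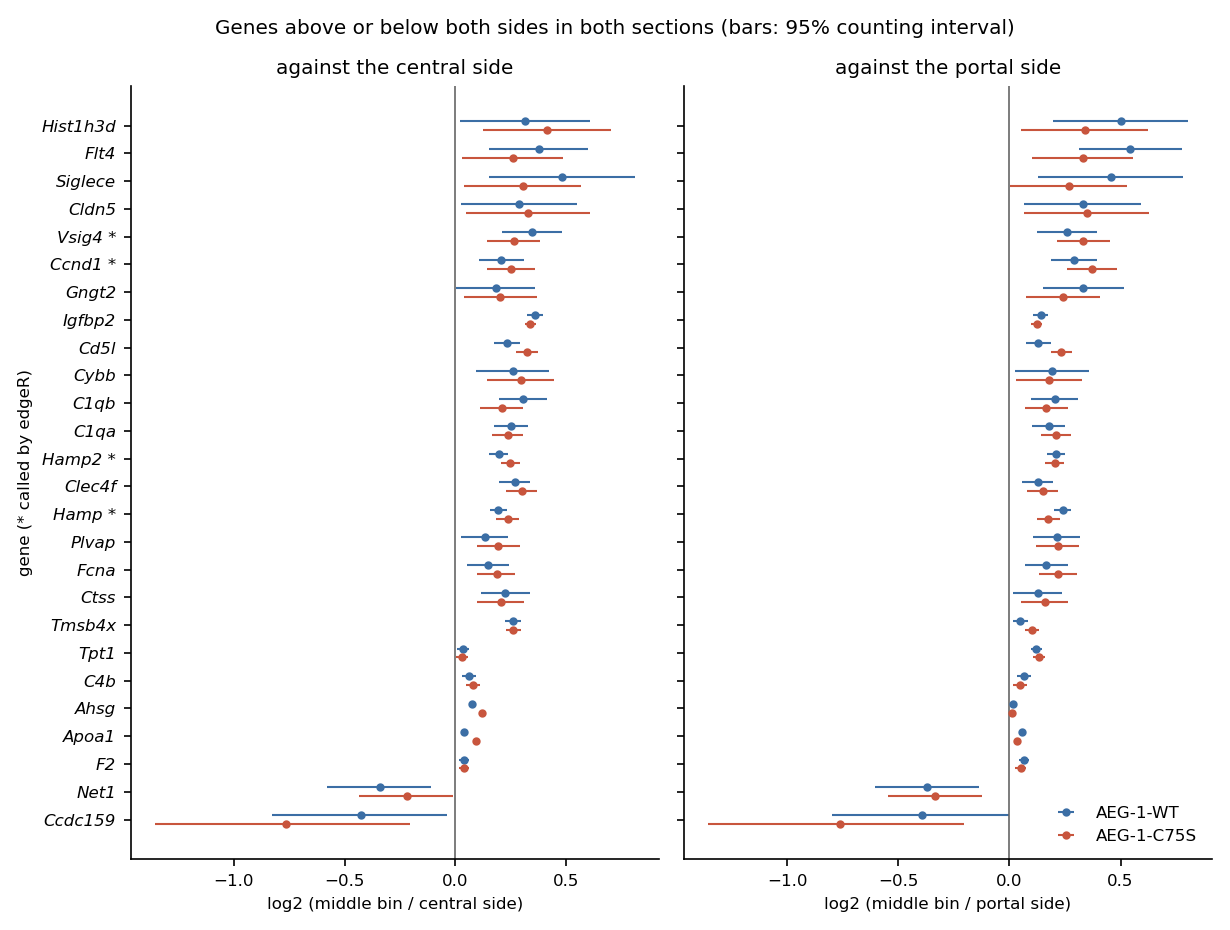
Log2 ratio of the middle bin over the central side (left) and the portal side (right) for the 26 genes whose counting intervals excluded 0 in the same direction in both sections, with 95% counting intervals and stars on the 4 genes called by edgeR. The 24 genes to the right of 0 include Hamp, Hamp2, Ccnd1 and Vsig4, and Ccdc159 and Net1 lie to the left.

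The sum of the Kupffer cell markers was highest in the middle of both sections, carried by Cd5l and Clec4f, while 2 of the 5 were not highest there in both. The summed level of the 5 markers (Marco, Clec4f, Fabp5, Cd5l and Vsig4) was 752, 878, 959, 909 and 816 CPM from the central to the portal end of WT, and 989, 1173, 1339, 1239 and 1053 CPM in C75S. Cd5l, the most abundant, had 457 CPM in the middle of WT and 653 in C75S. Clec4f, a lectin found on Kupffer cells, had 292 and 319 CPM. Vsig4 alone was called by edgeR (0.0391% of all genes), and Vsig4, Cd5l and Clec4f were above both sides with their counting intervals (0.235% of all genes). Marco was slightly higher in the outer bin than in the middle, at 43.3 against 39.6 CPM in WT and 126 against 124 in C75S. Against the portal side its middle was at -0.02 (-0.21 to 0.17) in WT and 0.06 (-0.05 to 0.17) in C75S, within counting error. Fabp5, a fatty acid binding protein, had 84.8 CPM in the WT middle, below the central end (99.0), and 129.5 in the C75S middle, its highest bin there. The list's median difference was 0.15 against the portal and 0.33 against the central side, where the medians over all genes tested were 0.00 and 0.00. In such sums more cells of a type and more RNA per cell cannot be told apart.

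Other non-parenchymal lists had other shapes. The 12 sinusoidal endothelial markers summed to 894 CPM in the middle bin of WT and 884 of C75S, below the inner bin (923 and 921), and none of the 10 tested was above both sides in both sections, where the share of all genes was 10%. The 4 stellate cell markers summed to 582 CPM in WT, below the inner bin (631), and to 797 in C75S, where the middle was highest. Of these, Ecm1 was the most abundant. Cholangiocyte markers, led by Spp1, summed to 30.4, 51.9, 94.0, 212 and 262 CPM from the central to the portal end of WT. In C75S they summed to 37.2, 59.1, 58.6, 170 and 155 CPM. The middle was below both portal-side bins in each section.

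Connective tissue and blood differed between the sections in the middle bin and in other bins. The 9 connective tissue genes, led by Col3a1, summed to 135, 124, 233, 364 and 284 CPM from the central to the portal end of WT. In C75S they summed to 106, 89.3, 90.0, 138 and 114 CPM. The 4 red blood cell genes, led by the globin Hbb-bs, summed to 803, 480, 745, 526 and 589 CPM in WT. In C75S they summed to 477, 350, 311, 337 and 611 CPM. Both lists were lower in the C75S section in the middle bin, while the red blood cell sum at the portal end was higher in C75S (611 against 589 CPM). Their part in the genotype ratios of other genes was not tested. The counts given below without the spots richest in connective tissue and bile duct genes are the exception. No gene of any of these lists was at 0 in both sections.

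**Figure D3:**
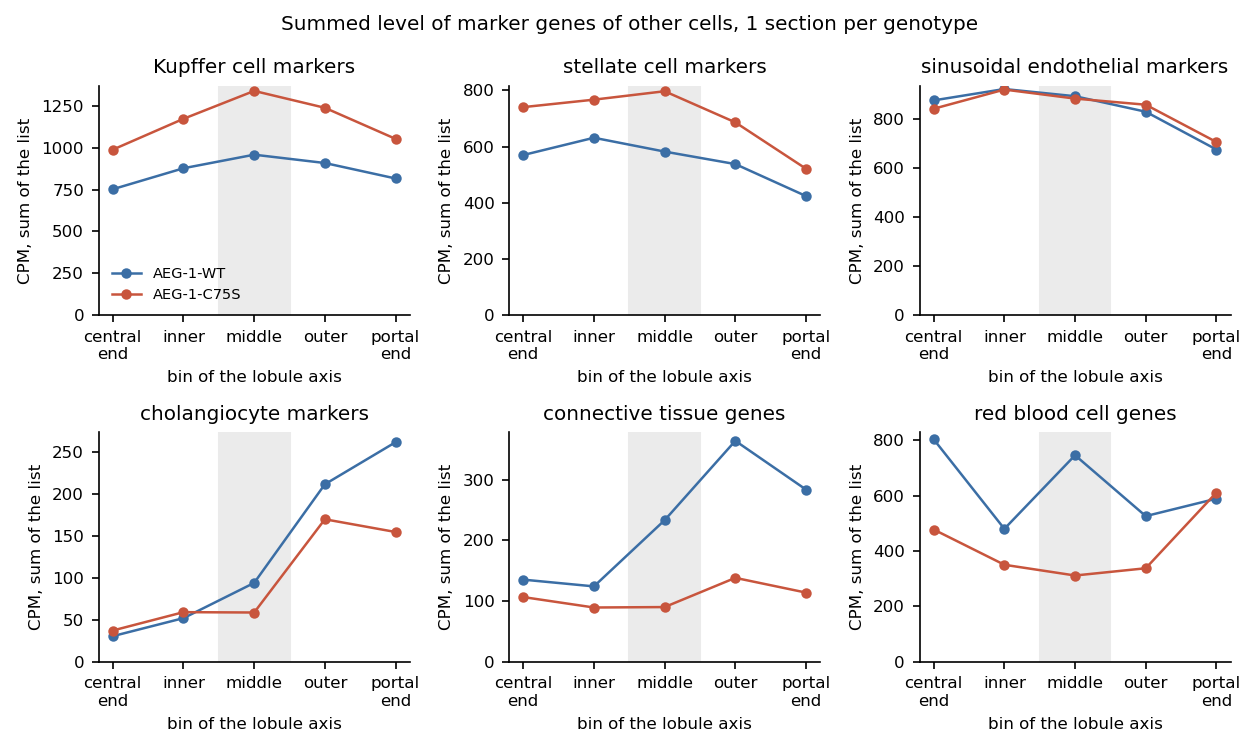
Summed CPM of 6 marker lists of other cells in each bin, 1 section per genotype. Kupffer cell markers are highest in the shaded middle bin of both sections (959 CPM in WT, 1339 in C75S), and connective tissue and red blood cell genes are higher in the WT middle (233 and 745 CPM) than in the C75S middle (90.0 and 311).

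None of the 19 BMP and iron sensing genes tested was called, where 0.0391% of all genes were. Bmp6 and Hjv were above both sides in both sections, 2 of the 19, where the share of all genes was 10% above and 9.84% below. Bmp6, the endothelial ligand that reports iron load, was at 0.24 against the portal side and 0.18 against the central side (standard errors 0.12 and 0.11) with an adjusted p of 1 in the edgeR test. It had 15.5, 18.8, 18.5, 17.8 and 12.1 CPM from the central to the portal end of WT and 10.8, 11.1, 12.5, 12.8 and 9.2 in C75S. Hjv, the hemojuvelin co-receptor, had 13.2 CPM in the WT and 15.1 in the C75S middle bin, and was at 0.30 and 0.18 (standard errors 0.12 and 0.12), also with an adjusted p of 1. Both genes had far fewer UMIs and larger standard errors than Hamp, and 2 of 19 is close to the share of all genes. Bmp6 was highest in the inner bin of WT and in the outer bin of C75S, not in the middle. Bmp2, another endothelial ligand, had 56.1, 59.3, 57.3, 52.0 and 42.7 CPM from the central to the portal end of WT, and 53.4, 63.4, 64.0, 51.0 and 45.7 in C75S, where the middle was highest. Tmprss6, the protease that restrains the BMP signal, was highest at the central end (347 CPM in WT, 311 in C75S) and had 309 and 263 CPM in the middle. Id1, a BMP target like hepcidin, had 31.1 CPM at the central and 43.7 at the portal end of WT, and 34.4 and 40.5 in C75S, with 35.7 and 36.0 in the middle.

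Of 11 iron transport and storage genes tested, 0 were called, where the share of all genes was 0.0391%. Transferrin (Trf), the most abundant, had 11405 CPM in the WT middle bin and 10477 in the C75S middle, below the portal ends (12442 and 11461). Ferroportin (Slc40a1), the target of hepcidin, had 197 and 207 CPM in the middle, and 201 and 219 in the outer bin, its highest in both sections. Mup3, listed here as a mid-lobular gene, had no arch and was highest at the portal end (4366 CPM at the central and 7818 at the portal end of WT). Cyp8b1, a bile acid hydroxylase, had 3.14 CPM in the WT middle and 7.75 in the C75S middle, and it was not called. In C75S it was at 0.77 (0.26 to 1.27) against the portal side and -0.33 (-0.77 to 0.10) against the central side. In WT it was at -0.34 (-1.03 to 0.32) and -0.72 (-1.39 to -0.09).

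For genes that were graded along the lobule, the middle bin was intermediate. Only genes with at least 500 UMIs in each section were counted, without Cyp2f2 and Cyp2e1. Of these, 32 were at least 1 log2 unit higher at the portal end in both sections and 64 at the central end. The middle bin of each section was between the ends for all of them, which the choice of genes by a large gap between the ends favours. The middle had made 53.0% of the central-to-portal change in the median portal-high gene of WT and 51.7% in C75S, where the percentage is the share of the log2 difference between the end bins. For central-high genes it was 42.0% and 46.4%. Among periportal markers, Hal (histidine ammonia-lyase) had made 58.9% and 51.5% of its change, and Pck1, the gluconeogenic enzyme, 34.4% and 28.8%. Pck1 thus had most of its gradient on the portal side, with 1304, 1480, 1732, 2215 and 2979 CPM in WT. Oat, which breaks down ornithine, had 1844, 1165, 601, 401 and 218 CPM in WT and had made 52.5% of its change by the middle. Cyp7a1, the rate-limiting enzyme of bile acid synthesis, held its level longer, at 272, 241, 203, 128 and 75.7 CPM, with 23.0% of its change made by the middle in WT and 28.1% in C75S. Ass1 was near 10 CPM in every bin, with 8.18 and 9.38 CPM in the 2 middle bins, and did not mark the portal side in these data.

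Between the genotypes, the middle bins were compared on summed UMIs for 10102 genes with at least 50 UMIs. In C75S 64 genes were at least 2-fold higher (0.634%) and 109 at least 2-fold lower (1.08%), with a median log2 ratio of -0.06. With TMM factors, and also when centred on the median gene, 73 were higher and 92 lower. Beyond counting error, 9.44% of the genes were higher and 18.5% lower. Over the whole sections 48 of 10058 genes were at least 2-fold higher (0.477%) and 68 lower (0.676%). In the central bin the shares were 0.703% higher and 0.803% lower, and in the inner bin 0.733% and 0.882%. In the outer bin they were 0.568% and 1.25%, and in the portal bin 0.584% and 1.26%. These are differences between 1 section of each genotype, with no test.

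Of the 17 mTOR, IGF binding and cell growth genes, 6 were higher and 3 lower beyond counting error (9.44% and 18.5% of all genes), with a median of -0.01. Igfbp1, an insulin-repressed binding protein of insulin-like growth factors, had 47.7 CPM in the WT middle and 317 in the C75S middle, a log2 ratio of 2.73 (interval 2.58 to 2.88). Igfbp2 was higher by 1.14 (1.10 to 1.17), against 1.13 to 1.18 in the other bins. Igfbp3, at -0.55 (-0.77 to -0.33), Igfbp4, at -0.30 (-0.34 to -0.27), and Igfals, at -0.23 (-0.33 to -0.13), which also bind these factors or their complexes, were lower. Of the 12 gluconeogenesis genes, 3 were higher and 9 lower beyond counting error, with a median of -0.26. G6pc, the last enzyme of glucose release, had 66.3 and 220 CPM, a ratio of 1.73 (1.59 to 1.86). Its ratio differed along the axis, from 1.89 at the central end through 1.67 in the inner and 1.33 in the outer bin to 0.81 (0.70 to 0.92) at the portal end, and the middle lay between the central and the outer bin. Pck1 was lower by -0.29 (-0.33 to -0.26), Tat, which starts tyrosine breakdown, by -1.04, and Sds, serine dehydratase, by -1.10. In that list 1 gene was at least 2-fold higher and 2 at least 2-fold lower, where the shares of all genes were 0.634% and 1.08%.

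Among genes with at least 500 UMIs, other high ratios were those of Marco, a scavenger receptor of Kupffer cells (39.6 and 124 CPM, log2 ratio 1.64), the immediate early transcription factor Egr1 (104 and 313 CPM, 1.59), the thyroxine-binding globulin gene Serpina7 (1.48), the tubulin gene Tubb2a (1.48), Depp1, a FOXO target (1.46), and the acute-phase gene Orm2 (1.37). All 5 Kupffer markers were higher in C75S beyond counting error (9.44% of all genes), with a list median of 0.51 against -0.06 over all genes, and Clec4f was the least changed at 0.13 (0.05 to 0.21).

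Among genes with at least 500 UMIs, the lowest ratio was that of Serpina1e, an alpha-1-antitrypsin paralog, with 1271 CPM in WT and 111 in C75S, a log2 ratio of -3.52 (-3.62 to -3.42). Its near-identical paralogs make the assignment of counts uncertain. Among the same genes it was followed by the uridine phosphorylase Upp2 (134 and 38.4 CPM, -1.80), the metallothionein Mt2 (1047 and 332 CPM, -1.66), the lipogenic factor Thrsp (127 and 40.5 CPM, -1.65), the clock output factor Dbp (224 and 74.3 CPM, -1.59), A1bg (-1.53), the proline dehydrogenase Prodh (-1.51) and Cyp7a1 (203 and 71.5 CPM, -1.50).

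Core clock genes were mostly lower in C75S. Of the 17 with enough UMIs, 2 were higher and 12 lower beyond counting error (9.44% and 18.5% of all genes). By fold, 1 was at least 2-fold higher and 5 at least 2-fold lower (0.634% and 1.08% of all genes), and the list median was -0.52 in the middle and -0.55 elsewhere. Arntl, which encodes BMAL1, had 6.38 CPM in WT and 20.3 in C75S (log2 ratio 1.67). Per2 had 26.4 and 7.25 CPM (-1.87) and Per3 40.1 and 11.5 CPM (-1.80), both repressors of that factor, and Nr1d1 was lower by only -0.21. The hour at which each liver was taken is not given in the sources used here.

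Hepcidin genes differed from each other between the genotypes. Hamp was lower in the C75S middle by -0.89 (-0.94 to -0.84), and by -0.93 to -0.82 in the other 4 bins. Hamp2 was lower by -0.04 (-0.09 to 0.00), a ratio whose sign turned to 0.02 with TMM factors. Bmp6 was lower by -0.56 (-0.94 to -0.20), Smad9 higher by 0.69 (0.44 to 0.94) and Id1 at 0.01 (-0.22 to 0.25), and the median of the 19 BMP and iron sensing genes was -0.03. Ccnd1 was at -0.05 (-0.17 to 0.07).

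The 5 cytochrome P450 genes that the study names as lower in its mid-lobular cluster were all lower in the C75S middle. That cluster came from clustering of expression profiles and also expressed pericentral markers, so its spots are not the same set as the middle bin. Cyp7a1 was lower by -1.50 (-1.64 to -1.37), Cyp3a13 by -0.47 (-0.55 to -0.38), Cyp17a1 by -0.42 (-0.53 to -0.31), Cyp2a4 by -0.29 (-0.35 to -0.24) and Cyp1a2 by -0.09 (-0.16 to -0.03). In the other bins Cyp1a2 was at -0.20 (central), -0.23 (inner), -0.06 (outer) and 0.03 (portal). The median over all genes in the middle bin was -0.06, and centred on the median gene Cyp1a2 stood at -0.03 there with an interval that included 0. The study chose this list on these samples, so the direction is no independent evidence. Their median was -0.42 in the middle bin and -0.41 over the other bins. Of the 21 genes of families CYP1 to CYP3 with enough UMIs, 7 were higher and 8 lower beyond counting error (9.44% and 18.5% of all genes), and the median was -0.01. Among xenobiotic receptors and partners, 6 of 11 were lower beyond counting error and none higher (18.5% and 9.44% of all genes), with Rxra at -0.23 (-0.32 to -0.14), the CAR gene Nr1i3 at -0.28 (-0.36 to -0.21), the PXR gene Nr1i2 at -0.08 (-0.21 to 0.06) and the reductase Por at -0.33 (-0.39 to -0.26).

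Of 12 fat synthesis genes 2 were higher and 7 lower beyond counting error (9.44% and 18.5% of all genes), with a median of -0.17. Scd1, the stearoyl-CoA desaturase, was higher by 1.04 (715 and 1467 CPM), while Fasn and Acly were lower by -0.19 and -0.33. Of 17 fat oxidation and ketogenesis genes 8 were higher beyond counting error and 1 lower (9.44% and 18.5% of all genes), with Cyp4a14 at 0.80 and Ehhadh at 0.82 among the higher ones.

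The genotype ratio of the middle bin was also set against that of the other bins. Over 3842 genes with at least 500 UMIs, the ratio in the middle bin minus the median of the other 4 bins had a median of -0.01, with 5% of genes below -0.20 and 5% above 0.16. The 5 genes farthest below were Hba-a2 (-0.74), Hbb-bs (-0.71), Spp1 (-0.63), Foxo1 (-0.46) and Ahcy (-0.46). Spp1, osteopontin, had a ratio of -0.70 in the middle, below those of the inner (0.16) and outer (-0.30) bins, and was at -0.79 at the portal end. Hbb-bs was also lower in C75S in the central (-0.74), inner (-0.44) and outer (-0.66) bins, and stood at 0.03 (-0.05 to 0.10) in the portal bin. Foxo1, the insulin-restrained transcription factor, had 67.1 CPM in the WT middle and 42.8 in the C75S middle (ratio -0.65, -0.85 to -0.46), against ratios of -0.24 to -0.14 in the other bins. The 5 farthest above, Galnt2, Gzf1, Dnajc21, Cnep1r1 and Set, had 238 to 317 UMIs in each section's middle, and Galnt2 led with 0.54 (0.29 to 0.79) in the middle. These genes were picked for the difference, which was not tested.

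Of the 8 connective tissue genes with enough UMIs, 6 were at least 2-fold lower in the C75S middle (1.08% of all genes), with a list median of -1.75 against -1.09 in the other bins. Col1a1 had 30.4 and 5.5 CPM (-2.46) and Mgp 22.6 and 6.0 CPM (-1.91). A few spots carried much of this signal in WT, where the 10 highest of 461 spots held 61.4% of Mgp and 38.5% of Col3a1 UMIs. Without the 10% of spots of each section that were richest in connective tissue and bile duct genes, 74 genes were at least 2-fold higher and 84 lower, and Hamp and Igfbp2 stood at -0.88 and 1.14.

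**Figure D4:**
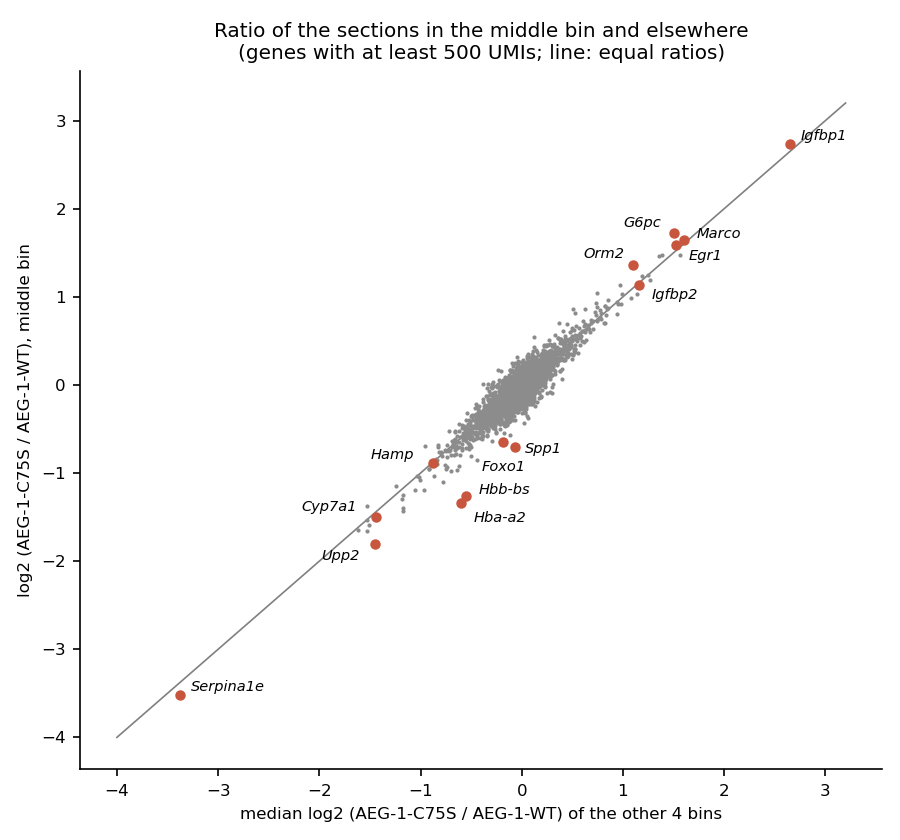
Log2 ratio of C75S over WT in the middle bin against the median ratio of the other 4 bins, for 3842 genes with at least 500 UMIs, with the line of equal ratios. Igfbp1 (2.73) and Serpina1e (-3.52) lie near the line, and Hba-a2, Hbb-bs, Spp1 and Foxo1 lie below it.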

How the data were processed

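The labels describe naive, untreated mouse liver, 1 WT and 1 C75S section, sequenced from FFPE tissue on Visium slides. The authors made the deposited UMI counts per gene and spot with Space Ranger 2.0.1 on mm10 and used Seurat 4.3.0, which was not needed here. The raw counts were taken as deposited, 19465 genes by 2316 and 2167 spots, with 42618523 and 41892649 UMIs, and 0 columns of other samples. Of 11 repeated gene symbols the first entry was used for named genes. Spots above 50000 UMIs were left out, following the methods, and no doublet caller was run on spots.

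The members, gene lists and tests were chosen with earlier results of these data known. UMIs were summed per bin and section into 10 sums, and edgeR 4.0.16 (R 4.3.3; TMM factors, glmQLFit, glmQLFTest; section as a block) tested 10221 genes with at least 100 UMIs in each section. A peak needed both contrasts, middle against the mean of the 2 portal-side and of the 2 central-side bins, above 0, with the larger p adjusted by Benjamini-Hochberg and under 0.05. The 2 sections served as replicates and bins of one section share its animal. Cyp2f2 and Cyp2e1 got no test. Genotype ratios are log2 ratios of CPM of sums, with exact binomial 95% intervals, which cover counting error only. Named genes were the zone markers and CYP genes the study names, all called peaks, the 8 highest and 8 lowest genotype ratios and the 5 farthest above and below the other bins among genes with at least 500 UMIs, and members of 23 gene lists. DESeq2 1.42.0, library sizes alone, a low filter, neighbouring bins, another axis, thinning to 5000 UMIs, a narrower middle, no UMI limit and leaving out connective tissue spots were tried as alternatives, and a depth range and the counting-interval rule were added after the data were seen. Scripts were tested on simulated data. Motifs were searched with Python 3.11.15 in RefSeq windows of GRCm38.p6, and upstream bases of Ccnd1 and Vsig4 were not used here. Some members of these lists, counted in them, are not reported here by name.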

Additional observations from a re-analysis of the deposited data

Results flagged for a closer look

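The globins Hbb-bs and Hba-a2, the genes of beta and alpha globin in red blood cells, moved in opposite directions in the 2 sections, and this difference was not tested. In WT, Hbb-bs was above the portal side by 0.42 and above the central side by 0.26 on the log2 scale, and Hba-a2 by 0.42 and 0.23. In C75S, Hbb-bs was at -0.57 against the portal side and -0.41 against the central side, and Hba-a2 at -0.70 and -0.45. The 10 highest of the 461 WT member spots held 44.4% of the Hbb-bs UMIs, with 593 in one spot, against 14.0% in C75S, where the highest spot had 59. Among spots of 10000 to 30000 UMIs only, the WT differences were -0.28 and -0.54 for Hbb-bs and -0.25 and -0.54 for Hba-a2, so that both sections then had both globins below both sides. With spots thinned to 5000 UMIs before ranking, the WT differences were 0.04 and -0.04 for Hbb-bs and -0.06 and -0.13 for Hba-a2. Without the spots richest in connective tissue and bile duct genes they were 0.24 and 0.07 for Hbb-bs and 0.21 and -0.01 for Hba-a2. Other settings kept the WT values above both sides. On the axis from the other zone markers they were 0.44 and 0.305 for Hbb-bs and 0.45 and 0.32 for Hba-a2. With the narrower middle bin they were 0.37 and 0.20 for Hbb-bs and 0.27 and 0.09 for Hba-a2. Without the UMI limit they were 0.41 and 0.25 for Hbb-bs and 0.41 and 0.23 for Hba-a2. In C75S both globins stayed below both sides in these settings.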

How the results depend on the processing

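No paired analysis was possible because each genotype had 1 section, and leaving out a section leaves no residual degrees of freedom, so it was not run. The 4 peaks became 7 without TMM factors (adding Igfbp2, Cd5l and C1qa), 0 with DESeq2 (20 at an unadjusted p under 0.05, against 117 in edgeR), 0 against only the neighbouring bins (30 unadjusted), 0 on the axis from the other zone markers (99 unadjusted), 2 with spots thinned to 5000 UMIs (Mrc1 and Ccnd1), 2 without connective tissue and bile duct spots (Ccnd1 and Cd74) and 24 by counting intervals alone. The 0 dips (71 at an unadjusted p under 0.05 in edgeR, 5 in DESeq2) became 2 among spots of 10000 to 30000 UMIs (Hbb-bs and Hba-a2) and 2 by counting intervals. Hamp missed the threshold with DESeq2 (smaller-side difference 0.18), neighbouring bins (0.11), the other axis (0.14), thinned spots (0.13) and without connective tissue spots (0.0834), and Hamp2 in the same settings at 0.18, 0.0948, 0.11, 0.13 and 0.10. Igfbp2 passed without TMM factors at 0.13 and reversed without connective tissue spots at -0.00165. With a minimum of 200 UMIs, 6896 genes were compared, of which 27 were at least 2-fold higher and 47 lower in C75S. The 64 higher and 109 lower genes of the main count became 73 and 92 with TMM factors or centred on the median gene. They became 70 and 95 with totals without the 20 most abundant genes. The ratio of Cyp2e1 turned from -0.05 to 0.0126 with TMM factors, 0.0125 centred on the median gene and 0.0016 with totals without the 20 most abundant genes. The cause of these changes was not tested. At these depths a gene of 50 UMIs has a wide interval, and no setting stands in for more animals.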

Other observations

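Mrc1, the mannose receptor of sinusoidal endothelium and macrophages, passed as a peak in 1 setting, when spots were thinned to 5000 UMIs before ranking, and Cd74, the invariant chain of MHC class II, passed in 1 setting, when the spots richest in connective tissue and bile duct genes were left out. The leukocyte list, led by Cd74, summed to 636 CPM in the middle bin of WT and 640 of C75S, below the outer bin in both (704 and 709).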
